A study of Mus musculus with 6 samples.

Results

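The tumor necrosis factor (TNF) superfamily ligands and receptors were taken from the deposited expression table as every gene whose symbol is Tnf or starts with Tnfsf or Tnfrsf followed by a number. The rule found 33 of the 23946 genes of the table, 13 ligands and 20 receptors, and used no measured value. Of these, 30 genes (11 ligands and 19 receptors) had at least 1 fragment per kilobase per 1000000 aligned reads (FPKM) in at least 1 library and are called expressed here. FPKM is a level corrected for transcript length and library size, so levels of different genes can be set side by side. RNA came from macrophages sorted as CD45+CD11b+F4/80+ cells of C57BL/6 mice, either from the omentum (OM) or from mesenteric adipose tissue (MY). The mice were female and 6 to 8 weeks old. The 9 mice were handled as 3 groups of 3, with the tissue of a group pooled. Naive mice had received no tumor cells, and the other groups had ID8 cells, a mouse ovarian cancer line, injected into the peritoneal cavity 24 h or 7 d earlier. The labels name no genetic change in any group, no library of mice injected with vehicle alone was analysed here, and each of the 6 conditions (OM naive, OM 24h, OM 7d, MY naive, MY 24h and MY 7d) had 1 library.

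TNF superfamily ligands are mostly trimeric membrane proteins that can be shed, and they signal by clustering receptors on the same or a neighbouring cell. One class of receptors carries a cytoplasmic death domain that can lead to caspase activation, and the other recruits TRAF adaptors that switch on NF-kB and JNK signalling. Macrophages are a main source of TNF and of the B cell survival factors BAFF and APRIL, while many receptors of the family are best known from T, B and NK cells, where they act as costimulatory or survival receptors. The omentum holds milky spots, which are clusters of macrophages and lymphocytes at the mesothelial surface.

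Because each condition had 1 library, a difference between conditions describes those libraries and no test between conditions was made. The FPKM values of a library summed to between 526887 and 713863, and the commonest ratio of low FPKM values put the depth at between 0.861 and 1.5 times that of MY naive, lowest in OM naive and highest in OM 7d. The read counts behind single values are not known from FPKM. The macrophage and sort markers found in the table, 8 of the 9 listed, were above FPKM 1 in every library and summed to 7253 to 26457 in the omental and 3158 to 4338 in the mesenteric libraries, with the highest sum in OM 24h. Markers of cells outside the sort were present as well. The 5 B cell markers summed to 885 to 3878 FPKM in the omentum and 510.5 to 1511 in the mesentery, the 6 T cell markers to 22.5 to 88.9 and 389 to 862.1, and the 6 NK cell markers to 13.8 to 233.5 and 643.6 to 1539. The 6 mesothelial markers summed to 82.8 to 851.8 in the omentum and to at most 0.722 in the mesentery, where Wt1 was listed at 0 in MY naive and MY 7d and Lrrn4 in MY 24h. In bulk RNA of sorted cells, fewer cells of a type and less RNA per cell cannot be told apart.

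Among the members under the symbol rule, receptors made up most of the summed FPKM in every library. The lymphotoxin beta gene Ltb, a ligand gene with another symbol, is not counted in the sums below. In OM naive, OM 24h and OM 7d it stood at 702.3, 123.7 and 309 FPKM. Its values in MY naive, MY 24h and MY 7d were 664.4, 436.1 and 769.7. The ligands summed to 71.3, 157.2 and 95.3 FPKM in OM naive, OM 24h and OM 7d and to 60.9, 75.2 and 52.7 in MY naive, MY 24h and MY 7d. The receptors summed to 505.2, 456.6 and 481.3 in the omental libraries and to 425.8, 468.9 and 505.4 in the mesenteric ones. The total for receptors was thus similar in all libraries, but its makeup was not. In OM naive the BAFF receptor gene Tnfrsf13c and the TACI gene Tnfrsf13b led, at 162.2 and 108 FPKM. In OM 24h the TNF receptor genes Tnfrsf1a and Tnfrsf1b and the TWEAK receptor gene Tnfrsf12a led, at 145.2, 79.9 and 67.5. The mesenteric libraries were led by the GITR gene Tnfrsf18 or by Tnfrsf1b, at 85.9 to 99.6. Of the ligands counted here, Tnfsf9 was highest in OM naive and Tnfsf13 in each of the other 5 libraries.

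**Figure D1:**
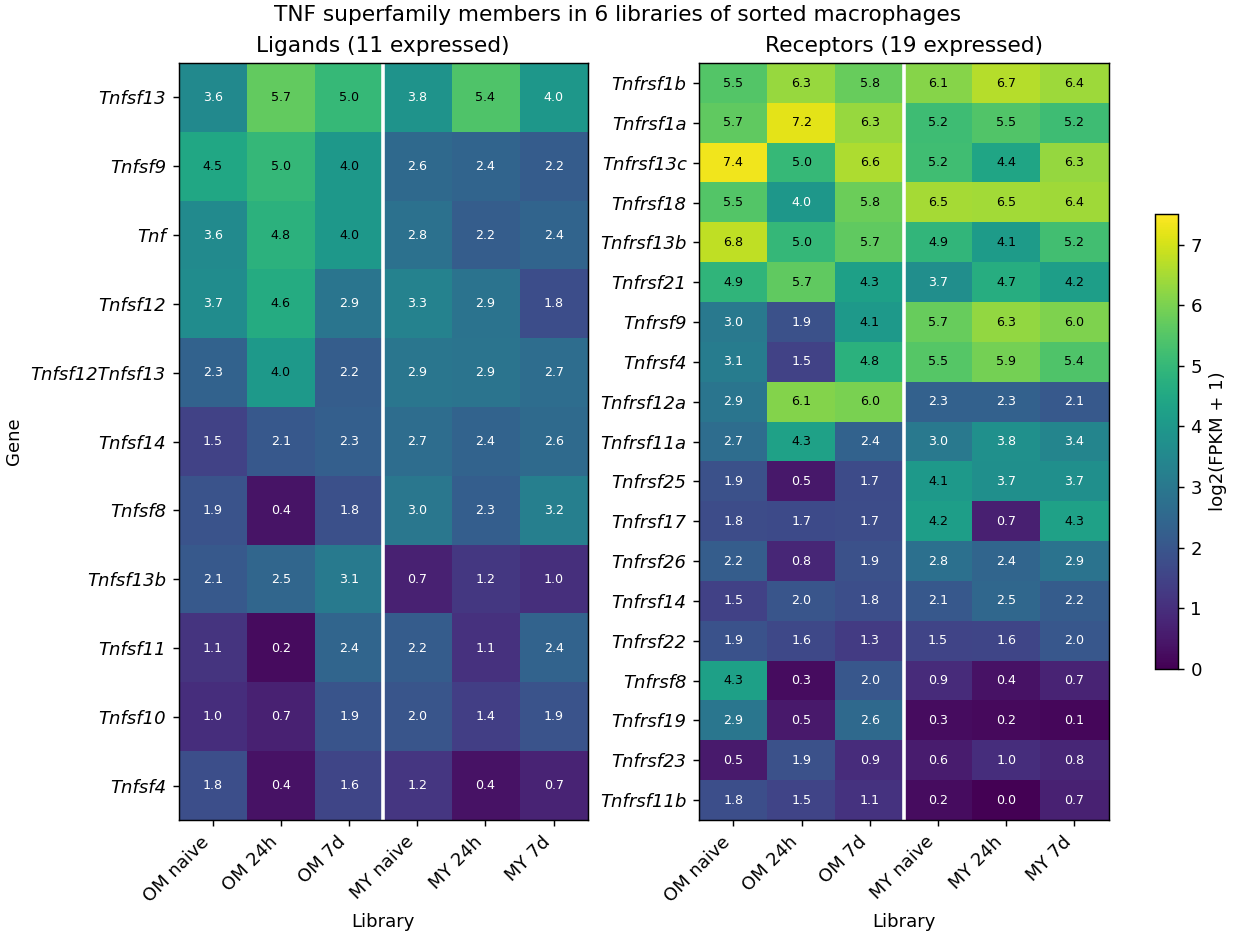
Level of each expressed ligand (left) and receptor (right) as log2(FPKM + 1), coloured and printed in each cell, with genes in rows and the 6 libraries in columns; the white line parts omental (OM) from mesenteric (MY) libraries. Tnfrsf12a stood at 6.1 and 6.0 in OM 24h and OM 7d and at 2.1 to 2.9 in the other libraries, and Tnfrsf9 stood at 5.7 to 6.3 in the mesentery and 1.9 to 4.1 in the omentum.

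The difference between the tissues was the only contrast with a test. A linear model (limma, with the time point as a block) was fitted to log2(FPKM + 1) of all 13064 expressed genes. Its residual has 2 degrees of freedom. It holds the change of the tissue difference over time and other spread between libraries, which cannot be told apart. Whether both tissues of a time point came from the same mice is not given. Different time points used different mice, so effects of time and of the group of mice cannot be told apart. An exact permutation test of 3 against 3 libraries cannot go below p = 0.10. In the omentum, 2 members were higher at an adjusted p under 0.05 (Tnfsf9 and Tnfsf13b, of 30), beside 5.08% of all genes, and 3 were lower (Tnfrsf9, Tnfrsf25 and Tnfsf8), beside 4.67%. Before adjustment 18 of the 30 had a p under 0.05. Without the 7d libraries none of the members passed the adjusted threshold, although 15 had an unadjusted p under 0.05. Leaving out another time point gave 5 calls each, but not the same 5 as the full fit. Without the naive libraries they were Tnf, Tnfrsf1a, Tnfrsf12a, Tnfsf9 and Tnfrsf25. Without the 24h libraries they were Tnfsf9, Tnfrsf19, Tnfrsf9, Tnfrsf17 and Tnfrsf25. Tnfsf13b and Tnfsf8 passed in none of these fits. In 7 members every omental value lay above every mesenteric one (Tnf, Tnfrsf1a, Tnfrsf11b, Tnfrsf12a, Tnfrsf19, Tnfsf9 and Tnfsf13b), which is 23.3% beside 16.7% of all genes. In 8 members every omental value lay below (Tnfrsf4, Tnfrsf9, Tnfrsf14, Tnfrsf18, Tnfrsf25, Tnfrsf26, Tnfsf8 and Tnfsf14), which is 26.7% beside 17.7%.

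**Figure D2:**
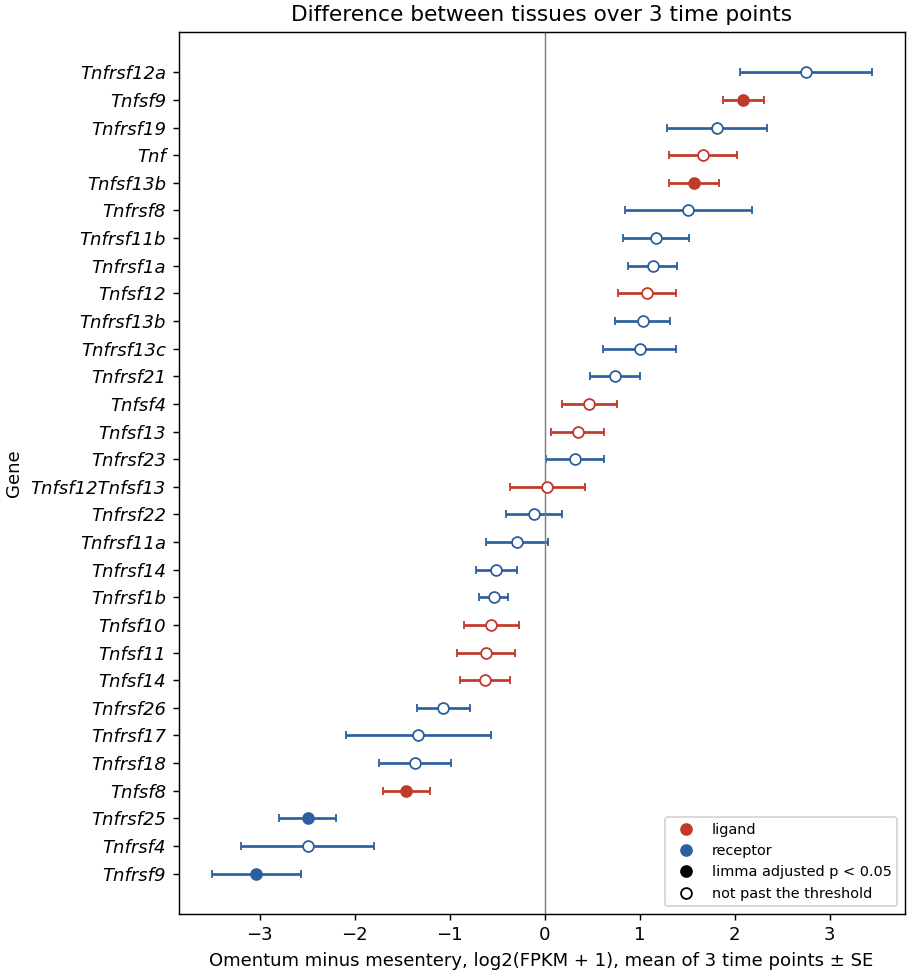
Omental minus mesenteric log2(FPKM + 1) of each expressed member (mean of 3 time points, points) with the standard error from limma (bars); filled points passed an adjusted p of 0.05, ligands are red and receptors blue. The filled points are Tnfsf9 (2.09) and Tnfsf13b (1.58) on the right and Tnfsf8 (-1.46), Tnfrsf25 (-2.49) and Tnfrsf9 (-3.03) on the left, while Tnfrsf12a (2.75) has a larger mean but a wider bar.

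In single pairs of libraries, a member was counted when it differed at least 2-fold in log2(FPKM + 1), a scale that shrinks differences between low levels. Between the naive libraries 8 of the 30 were higher in OM naive, beside 8.18% of all genes, and 7 were lower, beside 8.05%. Between OM 24h and MY 24h 10 were higher, beside 13.9%, and 6 lower, beside 10.2%, and with libraries rescaled to an equal sum the split was 8 and 8. Between OM 7d and MY 7d 9 were higher, beside 14.1%, and 6 lower, beside 4.99%. The median difference over the members was -0.16, 0.30 and 0.05 in these pairs, and the median over all expressed genes was 0.01, 0.00 and -0.01.

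Over time, more members were at least 2-fold apart among the omental than among the mesenteric libraries. From OM naive to OM 24h, 7 members were at least 2-fold higher (Tnfrsf12a, Tnfsf13, Tnfsf12Tnfsf13, Tnfrsf11a, Tnfrsf1a, Tnfrsf23 and Tnf), beside 11.9% of all genes. In the same pair 11 members were at least 2-fold lower (Tnfrsf8, Tnfrsf19, Tnfrsf13c, Tnfrsf13b, Tnfrsf4, Tnfsf8, Tnfrsf18, Tnfsf4, Tnfrsf26, Tnfrsf25 and Tnfrsf9), beside 6.45%. The receptors split into 4 higher and 9 lower with a median of -0.28, and the ligands into 3 higher and 2 lower with a median of 0.52, while the median over all genes was 0.00. The receptor median turned to 0.13 when only members with FPKM 1 in every library were kept. At 7 d the omentum stood nearer to its naive state. OM 7d had 5 members higher than OM naive (Tnfrsf12a, Tnfrsf4, Tnfsf13, Tnfsf11 and Tnfrsf9), beside 11.0%, and 2 lower (Tnfrsf8 and Tnfrsf13b), beside 1.96%, a split of 7 and 1 with libraries rescaled to an equal sum. OM 7d against OM 24h had 12 higher, beside 7.03%, and 4 lower, beside 4.52%. These 3 comparisons share libraries, so they are not independent of each other.

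The mesenteric libraries differed less. MY 24h had 1 member at least 2-fold above MY naive (Tnfsf13), beside 2.80% of all genes, and 2 below (Tnfrsf17 and Tnfsf11), beside 1.52%. MY 7d had 1 above MY naive (Tnfrsf13c), beside 0.498%, and 1 below (Tnfsf12), beside 2.29%. MY 7d against MY 24h had 4 above (Tnfrsf17, Tnfrsf13c, Tnfsf11 and Tnfrsf13b), beside 1.84%, and 2 below (Tnfsf13 and Tnfsf12), beside 3.54%. Whether the responses of the tissues differ was not tested, since there was 1 library of each condition.

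**Figure D3:**
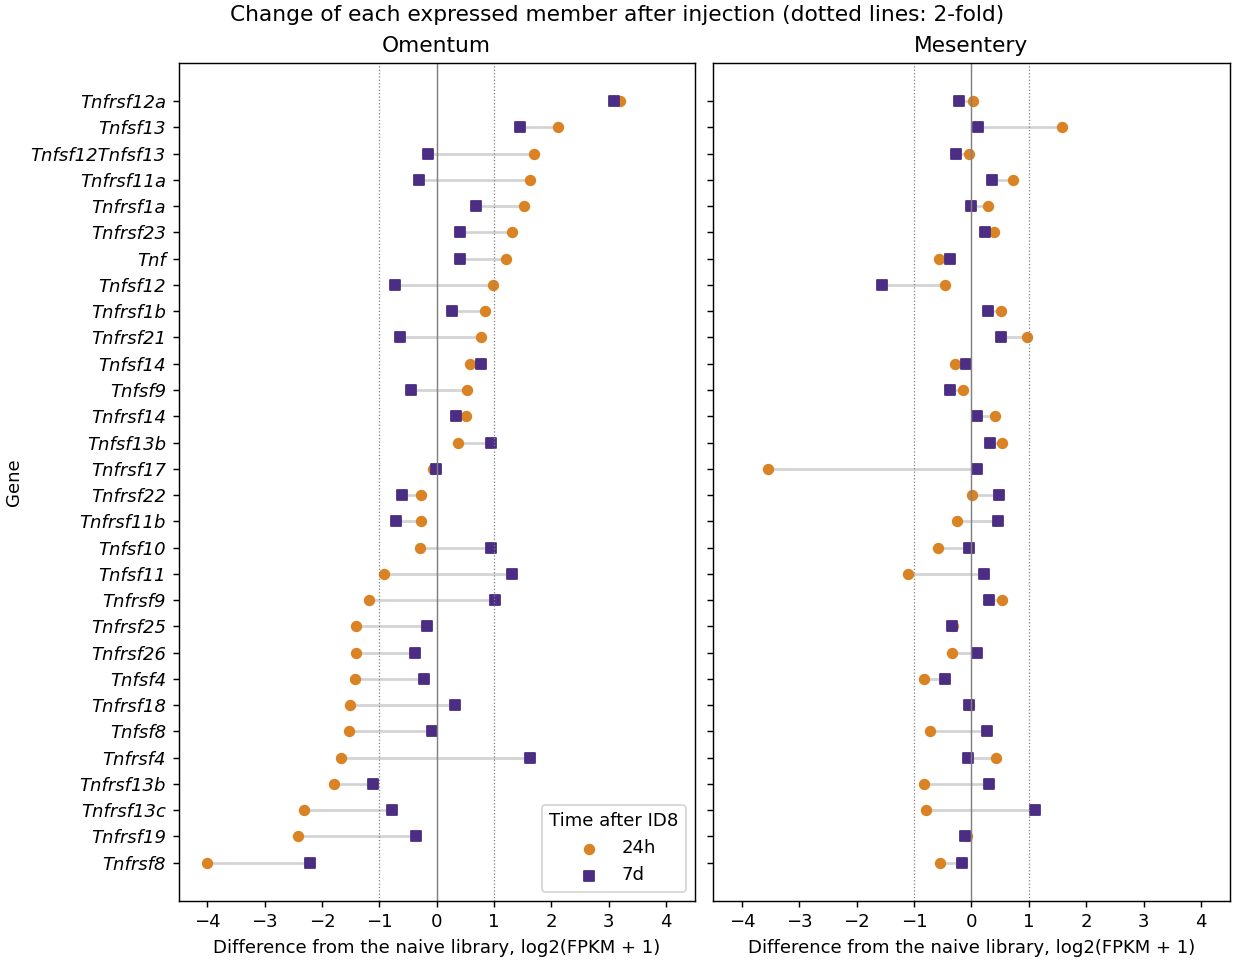
Difference of each expressed member from the naive library of the same tissue, in log2(FPKM + 1), at 24 h (orange circles) and 7 d (purple squares) after injection, with the omentum on the left, the mesentery on the right and dotted lines at 2-fold. In the omentum the 24 h points run from -4.0 (Tnfrsf8) to 3.19 (Tnfrsf12a), and in the mesentery most points lie between the dotted lines, with Tnfrsf17 at -3.55.

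The stretches of 250 bases upstream of the start of 5 members are shown because these genes are among the 18 that differed in the omentum at 24 h: Tnf and Tnfrsf12a, which were higher, and Tnfrsf8, Tnfrsf13c and Tnfrsf13b, which were lower. They were taken from RefSeq (GRCm38.p6 table) and found by exact match in the NCBIM37 (mm9) assembly used for the reads, where none overlaps an annotated exon. Their positions are chr17:35338953-35339202 (Tnf, minus strand), chr17:23814417-23814666 (Tnfrsf12a, minus), chr4:144905068-144905317 (Tnfrsf8, minus), chr15:82054811-82055060 (Tnfrsf13c, minus) and chr11:60940007-60940256 (Tnfrsf13b, plus). Each is written 5′ to 3′ in the direction of transcription, and capitals mark matches to the motifs searched on both strands: the AP-1 site TGANTCA, the GC box GGGCGG, the TATA box TATAAA and the NF-kB consensus.
Tnf: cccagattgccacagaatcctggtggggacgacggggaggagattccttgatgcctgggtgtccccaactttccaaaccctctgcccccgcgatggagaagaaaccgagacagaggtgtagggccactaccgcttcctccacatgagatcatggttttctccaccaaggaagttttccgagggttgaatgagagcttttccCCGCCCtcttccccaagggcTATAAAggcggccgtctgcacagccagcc
Tnfrsf12a: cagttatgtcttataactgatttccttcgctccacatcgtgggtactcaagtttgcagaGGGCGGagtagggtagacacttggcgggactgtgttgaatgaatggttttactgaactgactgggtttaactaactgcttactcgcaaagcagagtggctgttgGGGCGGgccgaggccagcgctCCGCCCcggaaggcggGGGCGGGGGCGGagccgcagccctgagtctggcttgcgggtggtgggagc
Tnfrsf8: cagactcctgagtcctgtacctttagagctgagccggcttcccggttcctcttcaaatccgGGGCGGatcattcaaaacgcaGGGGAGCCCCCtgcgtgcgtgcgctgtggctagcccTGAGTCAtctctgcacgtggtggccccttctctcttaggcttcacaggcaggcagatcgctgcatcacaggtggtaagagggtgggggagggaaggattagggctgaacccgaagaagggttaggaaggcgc
Tnfrsf13c: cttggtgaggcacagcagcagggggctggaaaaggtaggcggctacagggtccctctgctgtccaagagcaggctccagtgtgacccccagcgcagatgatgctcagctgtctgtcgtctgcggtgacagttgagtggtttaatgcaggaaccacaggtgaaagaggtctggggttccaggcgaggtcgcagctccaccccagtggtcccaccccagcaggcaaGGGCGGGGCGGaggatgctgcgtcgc
Tnfrsf13b: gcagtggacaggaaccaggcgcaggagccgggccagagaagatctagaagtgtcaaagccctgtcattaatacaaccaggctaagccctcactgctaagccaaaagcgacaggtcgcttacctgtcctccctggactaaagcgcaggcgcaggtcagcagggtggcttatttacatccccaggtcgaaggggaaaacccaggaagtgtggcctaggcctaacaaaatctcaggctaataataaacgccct

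The Tnf window held 1 GC box and 1 TATA box. The Tnfrsf12a window held 5 GC boxes, a pair of them side by side. The Tnfrsf8 window held 1 GC box, 1 AP-1 site and 2 overlapping NF-kB matches, which are read as 1 run of capitals. The Tnfrsf13c window held 2 overlapping GC boxes, and none of these motifs stood in the Tnfrsf13b window. RefSeq had 29 promoter windows for 25 of the 33 members. A GC box stood in 12 of the 29 windows, beside 32.7% of all 32851 promoter windows of the table, and an AP-1 site in 5, beside 6.75%. A TATA box stood in 5 of the 29, beside 12.4%, and an NF-kB match in 3 (Tnfrsf8, Tnfrsf9 and Tnfrsf25), beside 7.25%. A match describes the letters of the window and does not show that a factor binds there.

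Tnf itself lies on chr17:35336326-35338952 (mm9, minus strand) and encodes the founding inflammatory cytokine of the family. Its level was 11.1 FPKM in OM naive, 27.1 in OM 24h and 15.0 in OM 7d, and 5.89, 3.65 and 4.32 in MY naive, MY 24h and MY 7d. All omental values were above all mesenteric ones, and the distance was widest at 24 h, where OM 24h was 2.59 above MY 24h on the log2(FPKM + 1) scale. Over the time points the omental level was 1.67 ± 0.36 (SE, log2) higher, with an adjusted p of 0.053 in limma, and the adjusted p lay between 0.029 and 0.185 over the 11 alternatives. Tnfrsf1a encodes TNFR1, the widely expressed death domain receptor of TNF. It stood at 49.9, 145.2 and 80.5 FPKM in the omental libraries, in the order naive, 24 h and 7 d, and at 35.1, 42.9 and 35.0 in the mesenteric ones. Here too the groups did not overlap, and OM 24h was 1.52 above OM naive on the log2 scale (2.91 times in FPKM). The tissue difference was 1.14 ± 0.26 (limma, adjusted p = 0.059). Tnfrsf1b encodes TNFR2, which lacks a death domain and is prominent on immune cells. It stood at 44.2, 79.9 and 53.2 in the omentum and at 69.2, 99.6 and 84.3 in the mesentery, so the groups overlapped and the order of the tissues was the opposite of that for Tnfrsf1a. In both tissues the 24 h library was the highest for Tnfrsf1b. Its tissue difference was -0.53 ± 0.15 (limma, adjusted p = 0.091). The distance between both receptor genes within a library therefore turned, with Tnfrsf1a above Tnfrsf1b in all 3 omental libraries and below it in all 3 mesenteric ones. The macrophage and sort markers summed to 7697, 26457 and 7253 FPKM in the omentum and to 3432, 4338 and 3158 in the mesentery. Most of this sum was Lyz2. Of the 8 markers, Lyz2, Itgam and Fcgr1 were higher in every omental than in any mesenteric library, and the other 5 (Ptprc, Emr1, Csf1r, Cd68 and Mertk) overlapped. The 5 neutrophil markers in the table, of 6 listed, summed to 5828, 13573 and 14516 in the omentum and to 614.1, 656.8 and 227.9 in the mesentery, where S100a8 and S100a9 made up most of the omental sum. S100a8, S100a9 and Retnlg separated the tissues, while Cxcr2 and Csf3r overlapped. The part of either cell type in the Tnf and Tnfrsf1a values was not tested.

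Tnfrsf12a (chr17:23812414-23814416, minus strand) encodes FN14, the receptor of TWEAK, which is known as an injury-induced receptor on epithelial, mesenchymal and other tissue cells. Its level was 6.50 FPKM in OM naive, 67.5 in OM 24h and 62.7 in OM 7d, against 3.98, 4.07 and 3.27 in the mesentery. Both libraries after injection stood far above OM naive, 10.4 times at 24 h and 9.66 times at 7 d, while the mesenteric libraries stayed between 3.27 and 4.07. Over the time points the omental level was 2.75 ± 0.69 higher (limma, adjusted p = 0.075), and without the naive libraries the adjusted p was 0.010. The mesothelial markers moved with it. All 6 (Msln, Upk3b, Wt1, Krt19, Lrrn4 and Krt8) were higher in OM 24h and OM 7d than in OM naive, with sums of 82.8, 841.5 and 851.8 FPKM in OM naive, OM 24h and OM 7d, and all 6 were under 0.3 in every mesenteric library. Both omental libraries with these higher levels came from mice injected with ID8 cells. The paper used a keratin stain to find ID8 cells in the omentum, and Krt8 and Krt19 are keratin genes. RNA of mesothelial cells and of ID8 cells cannot be told apart here. The part of either in the Tnfrsf12a result was not tested. The annotation places Tnfrsf12a across Hcfc1r1 on the opposite strand, and without strand the reads of the overlap cannot be assigned. Tnfsf12 encodes TWEAK. It stood at 11.6, 23.7 and 6.60 FPKM in the omentum and at 9.09, 6.29 and 2.42 in the mesentery, so the ligand was highest in OM 24h and lowest at 7 d in both tissues. Its tissue difference was 1.08 ± 0.31 (limma, adjusted p = 0.093).

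Tnfsf12 and its neighbour Tnfsf13 lie 465 bases apart on chromosome 11 and are joined by a read-through transcript. Much of their sequence cannot be told from that of the read-through gene, since 48.1% of the Tnfsf12 and 49.3% of the Tnfsf13 windows of 75 bases were shared with BC096441, so the split of reads between Tnfsf12, Tnfsf13 and Tnfsf12Tnfsf13 is uncertain. The table lists the read-through as Tnfsf12Tnfsf13, at 4.09, 15.5 and 3.60 FPKM in the omentum and 6.69, 6.44 and 5.40 in the mesentery. Only OM 24h stood apart. Tnfsf13 encodes APRIL, a survival factor of plasma cells and B cells. It stood at 10.8, 50.5 and 31.4 FPKM in the omentum and at 13.3, 41.9 and 14.5 in the mesentery. Of the expressed ligands it was the furthest above naive at 24 h in both tissues, by 2.12 in OM and 1.58 in MY on the log2 scale. At 7 d the omental library was still 1.45 above OM naive, while MY 7d was 0.11 above MY naive. The tissue difference was 0.35 ± 0.28 (limma, adjusted p = 0.45).

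Tnfsf13b encodes BAFF, the main survival factor of mature B cells. Its level was low but separated the tissues, at 3.30, 4.54 and 7.30 FPKM in the omentum and 0.605, 1.32 and 1.01 in the mesentery. The omental level was 1.58 ± 0.26 higher on the log2 scale (limma, adjusted p = 0.028), in 3 of 3 time points, and passed the threshold in 6 of 10 alternatives, with an adjusted p of 0.127 without the 7d libraries and 0.071 and 0.075 without the naive or the 24h libraries. The receptors of BAFF and APRIL were among the highest members. Tnfrsf13c, which encodes the BAFF receptor BAFF-R of mature B cells, stood at 162.2, 31.7 and 94.0 FPKM in the omentum and at 36.0, 20.5 and 78.8 in the mesentery. In both tissues the 24 h library was the lowest, and the groups overlapped. Tnfrsf13b, which encodes TACI, a receptor of both BAFF and APRIL, stood at 108, 30.6 and 49.6 in the omentum and at 29.8, 16.4 and 36.9 in the mesentery, again with the lowest value at 24 h. The tissue differences were 1.0 ± 0.39 and 1.03 ± 0.29 (limma, adjusted p = 0.167 and 0.093). The B cell markers had the same lowest libraries. Their sums were 3878, 885 and 2383 FPKM in the omentum and 749.4, 510.5 and 1511 in the mesentery, and all 5 (Cd79a, Cd79b, Ms4a1, Pax5 and Cd22) were above FPKM 1 in every library. Their part in the values of Tnfrsf13c and Tnfrsf13b was not tested.

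Tnfrsf17 encodes BCMA, the receptor of APRIL on plasma cells. It stood at 2.37, 2.24 and 2.34 FPKM in the omentum, and at 17.5, 0.578 and 18.8 in the mesentery. The omental values were nearly equal, while MY 24h lay 3.55 below MY naive on the log2 scale. The plasma cell markers in the table, 5 of the 6 listed, summed to 479.4, 67.0 and 808.5 in the mesentery and to 484.9, 158.9 and 423.6 in the omentum, with Igj at 428.5, 47.2 and 750.5 in the mesenteric libraries. The marker sum was thus lowest in MY 24h as well, as was each of the 5 markers. Within the omentum the list was split. Igj (412.6, 103.7 and 365.3 FPKM), Irf4 and Derl3 were lowest in OM 24h. Sdc1 was highest there (13.02, 32.8 and 22.07), and Prdm1 was lowest in OM naive (6.203, 7.656 and 8.684). The part of plasma cells in the Tnfrsf17 value was not tested. For the tissue difference of -1.33 ± 0.76 limma gave an adjusted p of 0.313, and without the 24h libraries it was -2.51 with an adjusted p of 0.015.

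**Figure D4:**
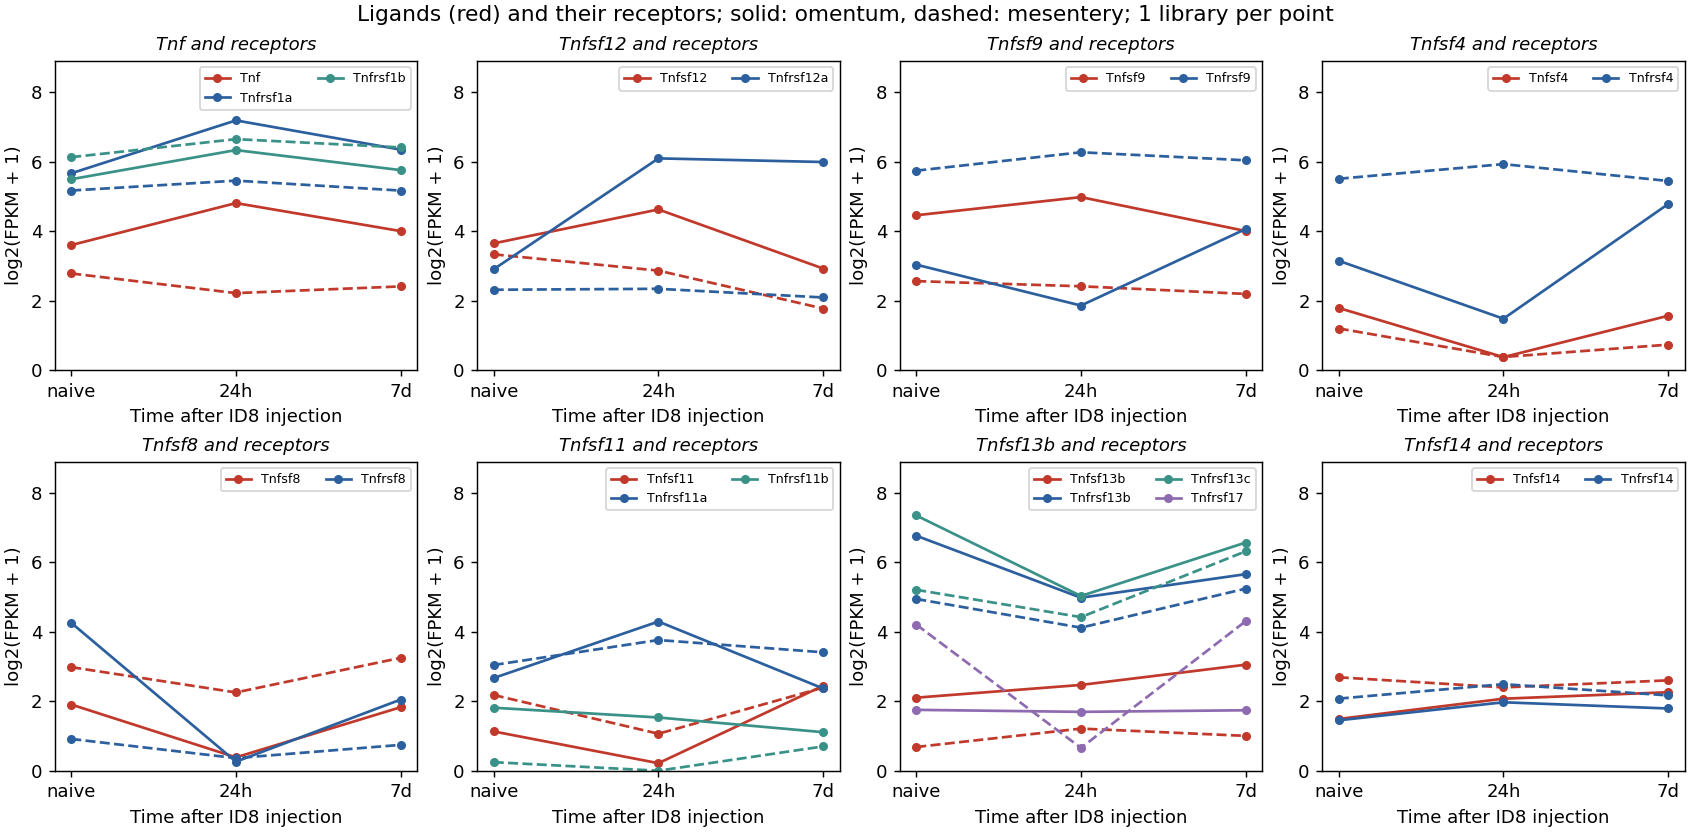
Levels in log2(FPKM + 1) of 8 ligands (red) and their receptors (other colours) in naive mice and 24 h and 7 d after ID8 injection, with the omentum as solid and the mesentery as dashed lines and 1 library per point. For Tnf and Tnfsf9 the solid red line lies above the dashed one at every time, for Tnfrsf9 and Tnfrsf4 the solid blue line lies below the dashed one, and for Tnfrsf12a the lines part after injection.

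Several costimulatory ligands and receptors of lymphocytes separated the tissues. Tnfsf9 (chr17:57244808-57247180, plus strand) encodes 4-1BB ligand, which is made by antigen-presenting cells. Its level was 21.0, 30.6 and 15.1 FPKM in the omentum against 4.91, 4.33 and 3.58 in the mesentery. All omental values lay above all mesenteric ones, and the difference of 2.09 ± 0.21 on the log2 scale had the lowest adjusted p of the members (limma, 0.0092). It was higher in 3 of 3 time points and passed the threshold in 9 of 11 alternatives, where the highest adjusted p was 0.055. Tnfrsf9 (chr4:150288671-150320211, plus strand) encodes its receptor 4-1BB, known from activated T and NK cells, and differed in the opposite direction. It stood at 7.22, 2.63 and 15.7 FPKM in the omentum against 52.6, 76.4 and 64.9 in the mesentery. The difference was -3.03 ± 0.47 (limma, adjusted p = 0.025), in 3 of 3 time points, and it passed in 8 of 11 alternatives. Within the omentum the receptor was lowest at 24 h, where the ligand was highest.

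Tnfrsf4 and Tnfrsf18 encode the T cell costimulatory receptors OX40 and GITR and lie 9551 bases apart on chromosome 4. Tnfrsf4 stood at 7.87, 1.79 and 26.5 FPKM in the omentum and at 44.6, 60.1 and 42.7 in the mesentery, and the highest omental value, at 7 d, was below the lowest mesenteric one. It was 14.8 times higher in OM 7d than in OM 24h, a difference of 3.30 on the log2(FPKM + 1) scale. Tnfrsf18 stood at 44.1, 14.8 and 55.1 in the omentum and at 88.7, 86.5 and 85.9 in the mesentery. Its mesenteric values hardly varied, and its omental values were all lower, lowest at 24 h. The tissue differences were -2.49 ± 0.70 for Tnfrsf4 and -1.37 ± 0.38 for Tnfrsf18 (limma, adjusted p = 0.092 and 0.089), so neither passed. The ligand of OX40, Tnfsf4, ranged from 0.296 in OM 24h to 2.46 in OM naive. The ligand of GITR, Tnfsf18, was not expressed by the measure used here, with a highest value of 0.416 in OM 7d. As for Tnfrsf12a, the reads of some members could include those of a gene on the opposite strand, which is Gm16008 for Tnfrsf18, Gm12269 for Tnfrsf13b and Gm11110 for Tnfsf9.

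Tnfrsf25 encodes DR3, a death domain receptor of T cells and innate lymphoid cells. Its level was 2.66, 0.386 and 2.27 FPKM in the omentum and 15.8, 12.3 and 12.2 in the mesentery, a difference of -2.49 ± 0.30 (limma, adjusted p = 0.013) that held in 3 of 3 time points and passed in 8 of 10 alternatives. Its ligand Tnfsf15 stayed below 1 in every library, with a highest value of 0.367 in OM 24h. Tnfsf8 encodes CD30 ligand. It stood at 2.75, 0.306 and 2.55 in the omentum and at 6.91, 3.77 and 8.51 in the mesentery, a difference of -1.46 ± 0.25 (limma, adjusted p = 0.029) that passed in 5 of 10 alternatives. Neither gene overlapped between the tissues, and both were lowest in OM 24h. Tnfrsf8, which encodes CD30, an activation marker of lymphocytes, followed another course. It stood at 18.1, 0.198 and 3.14 FPKM in the omentum and at 0.885, 0.286 and 0.675 in the mesentery. OM naive was thus above all other libraries, and OM 24h lay 4.0 below it on the log2 scale, the largest difference of the members in that pair. The tissue difference was 1.52 ± 0.67 (limma, adjusted p = 0.208).

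Markers of lymphocytes and mast cells also differed between the libraries. The T cell marker sums were 88.9, 22.5 and 87.5 FPKM in the omentum and 683.5, 389 and 862.1 in the mesentery, and none of the 6 was listed at 0. The NK cell marker sums were 233.5, 13.8 and 110.7 in the omentum and 1539, 937.5 and 643.6 in the mesentery. Both sums were lowest in OM 24h and higher in every mesenteric than in any omental library, as Tnfrsf4, Tnfrsf9, Tnfrsf18, Tnfrsf25 and Tnfsf8 were. Of the single markers, only Cd4 was not lowest in OM 24h (8.48, 8.79 and 8.77 in the omentum). Within the mesentery the courses differed. Tnfrsf4 and Tnfrsf9 were highest in MY 24h (60.1 and 76.4), where the T cell sum and Tnfsf8 were lowest. The dendritic cell marker sum was 628.1, 910.6 and 775.7 in MY naive, MY 24h and MY 7d, thus also highest in MY 24h, although Xcr1 of that list was lowest there. The 4 regulatory T cell markers summed to 31.4, 3.95 and 47.7 in the omentum and to 23.4, 11.4 and 20.2 in the mesentery, so that list did not separate the tissues. The 5 mast cell markers summed to 63.5, 4.36 and 66.0 in the omentum, with Cpa3 listed at 0 in OM 24h, and to 38.4, 43.2 and 70.8 in the mesentery, with Tpsb2 listed at 0 in MY naive. The part of these cells in the values of the receptors was not tested.

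**Figure D5:**
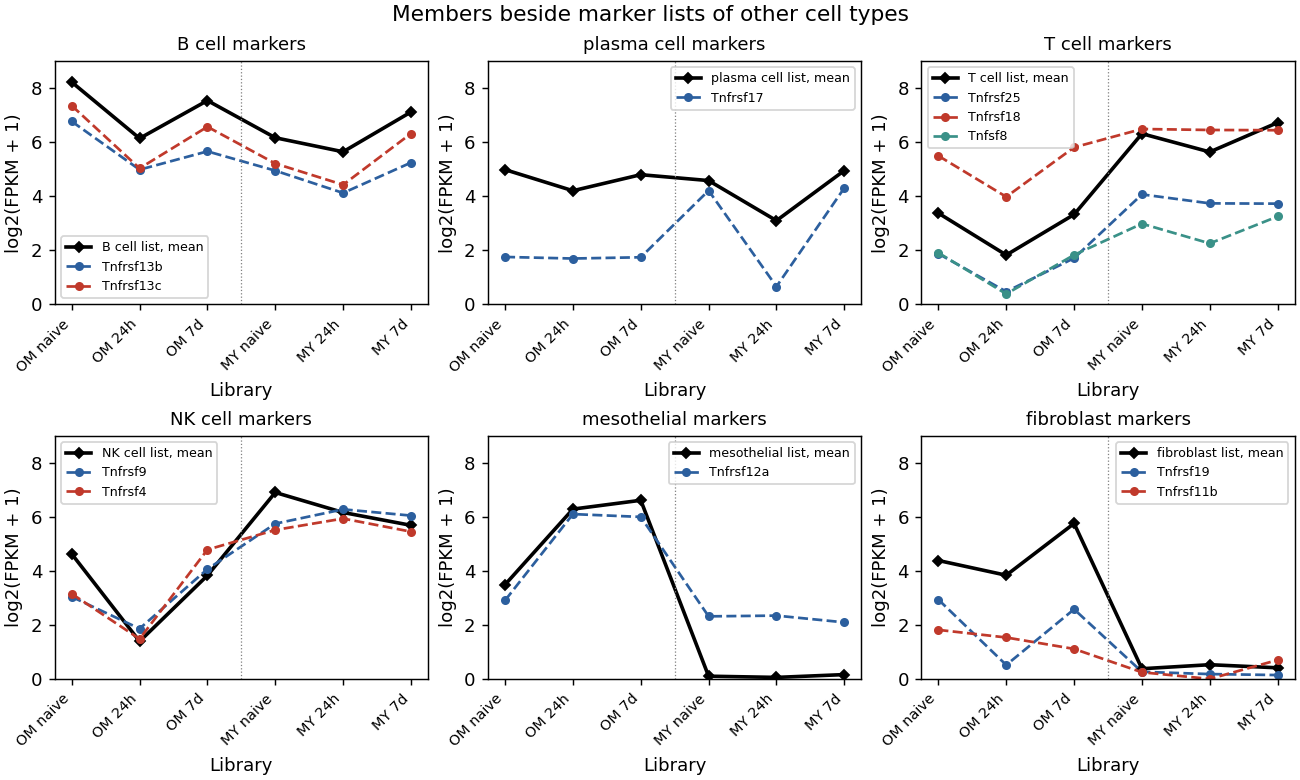
Mean log2(FPKM + 1) of 6 marker lists (black) and levels of selected members (dashed, coloured) in the 6 libraries, with a dotted line between omental and mesenteric libraries; the members in each panel were chosen after their values were seen. Tnfrsf12a and the mesothelial list are high in OM 24h and OM 7d, and Tnfrsf13c and the B cell list are lowest at 24 h in each tissue.

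Tnfrsf11a encodes RANK, the receptor of RANKL on macrophages, osteoclast precursors and dendritic cells. It stood at 5.36, 18.6 and 4.17 FPKM in the omentum and at 7.25, 12.6 and 9.63 in the mesentery. The 24 h library was the highest in each tissue, 1.62 over OM naive and 0.72 over MY naive on the log2 scale. Csf1r, the receptor gene of the macrophage growth factor CSF1, which is on the macrophage list, was also highest at 24 h in each tissue, at 131.9, 569.8 and 102.8 FPKM in the omentum and 120.9, 313.2 and 192.1 in the mesentery. The part of the share of macrophage RNA in the Tnfrsf11a values was not tested. Tnfsf11, which encodes RANKL, ranged from 0.162 in OM 24h to 4.45 in OM 7d and was lowest at 24 h in both tissues. Tnfrsf11b encodes osteoprotegerin, the soluble decoy of RANKL. It ranged from 1.16 to 2.52 in the omentum, was at most 0.625 in the mesentery and was listed at 0 in MY 24h. The groups did not overlap, and the tissue difference was 1.17 ± 0.35 (limma, adjusted p = 0.099).

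Tnfsf14 encodes LIGHT, a ligand of HVEM and of the lymphotoxin beta receptor. It stood at 1.81, 3.21 and 3.79 FPKM in the omentum and at 5.45, 4.28 and 5.07 in the mesentery, lower in the omentum at each time, by 0.33 to 1.20 on the log2 scale. Tnfrsf14, which encodes HVEM, ranged from 1.74 to 2.92 in the omentum and from 3.22 to 4.63 in the mesentery. Neither gene overlapped between the tissues. The differences of -0.62 ± 0.26 and -0.51 ± 0.21 had adjusted p-values of 0.193 and 0.189 in limma. Tnfsf10, the gene of the death ligand TRAIL, ranged from 0.622 in OM 24h to 2.94 in MY naive. The mouse gene of the death receptor for TRAIL, Tnfrsf10b, was below 1 in every library, with a highest value of 0.544 in MY naive.

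Of the remaining receptors, Tnfrsf21 was the highest. It encodes the death domain receptor DR6 and stood at 28.8, 50.1 and 18.0 FPKM in the omentum and at 12.0, 24.5 and 17.6 in the mesentery. The 24 h library was the highest in each tissue, and the tissues overlapped, with a difference of 0.74 ± 0.26 (limma, adjusted p = 0.139). Tnfrsf19, which encodes TROY, stood at 6.64, 0.429 and 4.97 in the omentum and at 0.199, 0.132 and 0.104 in the mesentery. All omental values were higher, and OM 24h was far below the other omental libraries. The tissue difference was 1.81 ± 0.52 (limma, adjusted p = 0.098), and without the 24h libraries it was 2.55 with an adjusted p of 0.031. The 6 fibroblast markers, which summed to 337, 220.4 and 1183 in the omentum and to at most 3.33 in the mesentery, with Pdgfra listed at 0 in MY 24h, also separated the tissues and were lowest in OM 24h within the omentum. From OM naive to OM 7d the 2 went opposite ways, the fibroblast sum from 337 to 1183 and Tnfrsf19 from 6.64 to 4.97 FPKM. The part of fibroblasts in the Tnfrsf19 values was not tested.

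Tnfrsf22, Tnfrsf23 and Tnfrsf26 form a cluster on mouse chromosome 7, in which neighbours lie 6854 and 16147 bases apart. Tnfrsf22 and Tnfrsf23 encode decoy receptors of TRAIL without a death domain. Tnfrsf26 stood at 3.68, 0.763 and 2.60 FPKM in the omentum and at 5.85, 4.43 and 6.31 in the mesentery, lower in the omentum at each time (-1.06 ± 0.28 in log2, limma, adjusted p = 0.076). Tnfrsf22 ranged from 1.45 to 3.09 and Tnfrsf23 from 0.451 to 2.61, with its highest value in OM 24h. Of their 75-base windows, 12.9% of Tnfrsf22 and 16.1% of Tnfrsf23 were identical between both genes, so their levels are uncertain. The 3 genes did not move together, since OM 24h was 1.41 below OM naive for Tnfrsf26, 0.27 below for Tnfrsf22 and 1.31 above for Tnfrsf23.

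The pathway was followed further in 5 lists of 55 genes, of which 52 were expressed. Ligands with other symbols gave 0 genes higher and 1 lower in the omentum of 5 in the limma fit (Cd40lg), and receptors with other symbols gave 1 higher (Ltbr) and 2 lower (Fas and Cd27) of 6. The list of TRAFs and death domain adaptors, which also holds other signalling genes such as Map3k14, Mlkl and Cyld, gave 0 higher and 4 lower of 17 (Traf1, Traf2, Cflar and Map3k14). NF-kB subunits and inhibitors gave 1 higher (Nfkbiz) and 1 lower (Relb) of 14. The list for TNF shedding and its mRNA gave 3 higher (Timp3, Zfp36 and Lbp) and 0 lower of 10. Lbp is on that list but encodes neither a shedding enzyme nor a protein known to act on Tnf mRNA. These counts stand beside the 5.08% and 4.67% of all genes given above, and lists this short were not tested as sets.

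Of the 52 genes, 4 were at least 2-fold higher in the omentum in all 3 pairs of libraries, beside 3.93% of all genes, and 4 were at least 2-fold lower, beside 3.00%. Of the 30 members, 2 and 3 met the same rule, and they were those that passed in limma. Cd27, the gene of a costimulatory receptor of T cells, stood at 4.99, 0.870 and 5.28 FPKM in the omentum and 63.3, 39.8 and 67.8 in the mesentery (-3.78 ± 0.25 in log2, limma, adjusted p = 0.0041). Cd40lg, the gene of the CD40 ligand of helper T cells, stood at 3.89, 1.25 and 3.56 against 10.7, 8.56 and 13.4 (-1.67 ± 0.23, adjusted p = 0.018 in limma). The T cell marker sums given above were also lower in every omental library, and their part in both values was not tested. Traf1, an NF-kB-induced adaptor of TNFR2 and 4-1BB, stood at 53.2, 23.4 and 47.2 against 130.9, 138 and 95.5 (-1.60 ± 0.32, limma, adjusted p = 0.045). Relb, the subunit of the alternative NF-kB pathway, stood at 64.3, 65.9 and 63.7 against 250.6, 289.6 and 197.4 (-1.89 ± 0.17, limma, adjusted p = 0.0070), nearly level within the omentum while many members differed. Map3k14, which encodes the kinase NIK upstream of RelB, was also lower (-1.17 ± 0.23, limma, adjusted p = 0.040), but by less than 2-fold at 7 d (-0.72). Nfkb2 (-0.49 ± 0.14, adjusted p = 0.092 in limma) and Chuk (-0.63 ± 0.22, adjusted p = 0.140) of the NF-kB list did not pass. The 6 dendritic cell markers summed to 433.1, 214.5 and 259.2 in the omentum and to 628.1, 910.6 and 775.7 in the mesentery, with Ccr7 at 93.8, 49.2 and 115.7 against 526, 760.7 and 660.5. Ccr7 and Flt3 were lower in every omental library, Cd209a was higher, and Zbtb46, Xcr1 and Itgax overlapped, and the part of these cells was not tested.

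In the other direction, Nfkbiz, an inducible nuclear IkB protein, stood at 36.7, 64.3 and 36.7 FPKM in the omentum and 10.6, 13.3 and 5.31 in the mesentery (2.16 ± 0.21, limma, adjusted p = 0.0083). Zfp36 encodes tristetraprolin, which binds AU-rich elements and speeds the decay of Tnf mRNA. It stood at 835.2, 1281 and 900.9 against 143.8, 168.2 and 182.8 (2.58 ± 0.20, limma, adjusted p = 0.0053), and its omental values, like those of Tnf, all lay above the mesenteric ones. Timp3, the inhibitor of the TNF sheddase ADAM17, stood at 4.34, 23.2 and 37.6 against at most 0.807 (3.30 ± 0.59, limma, adjusted p = 0.034). Lbp, which encodes the lipopolysaccharide-binding protein, stood at 2.97, 5.25 and 7.22 against at most 0.762 (1.97 ± 0.35, limma, adjusted p = 0.032). Timp3 and Lbp were highest in OM 7d, where the fibroblast marker sum was also highest. The mesothelial marker sum was nearly the same in OM 24h and OM 7d (841.5 and 851.8), and Krt19 and Krt8 of that list were highest in OM 24h. The part of fibroblasts and mesothelial cells in the Timp3 and Lbp values was not tested.

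Between OM 24h and OM naive, 4 of the 5 other ligands were at least 2-fold lower and 0 higher, with lymphotoxin alpha, Lta, at -3.12 on the log2(FPKM + 1) scale (19.4 and 1.35 FPKM) and the death ligand gene Fasl at -2.78 (5.95 and 0.0136 FPKM). The order of these genes depends on the pseudocount, since in FPKM the ratio was lower for Fasl. Among the other receptors that reached FPKM 5, the lymphotoxin beta receptor gene Ltbr was the furthest above naive, by 1.33 (21.1 and 54.7), and Cd27 had the lowest value, -1.68. Marker sums of lymphocytes were lower in OM 24h as well. From OM naive to OM 24h they were 88.9 and 22.5 FPKM for T cells, 233.5 and 13.8 for NK cells and 3878 and 885 for B cells. Of these markers only Cd4 was not lower (8.48 and 8.79). The part of these cells in the Lta, Fasl and Cd27 values was not tested. The ectodysplasin receptor gene Eda2r, which stayed below FPKM 5, was listed at 0 in OM naive and stood at 2.27 in OM 24h. The necroptosis effector Mlkl was 1.46 higher (3.86 and 12.4) and the deubiquitinase gene Cyld 1.16 lower, a log2 value of -1.16 (22.3 and 9.41). Nfkbiz was 0.79 higher, and Nfkb1 had -1.14 (48.9 and 21.6). Timp3 was 2.18 higher, and Zfp36l2, a relative of Zfp36, had -0.54 (159.9 and 110.0). At least 2-fold differences were thus counted in 1 higher and 2 lower of the 17 genes on the adaptor list and 0 and 1 of 14 NF-kB genes. On the shedding and mRNA list they were 3 and 0 of 10. All these counts stand beside the 11.9% and 6.45% of all genes.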

How the data were processed

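RNA of sorted omental and mesenteric macrophages was measured in 6 libraries, 1 per condition. The authors deposited FPKM per gene symbol, made by Cufflinks 2.2.1 from 75-base paired-end reads that STAR 2.4.2a had placed on NCBI37/mm9 with a UCSC annotation, after a read check in FastQC 0.11.4. The counts and DESeq2 results that the methods describe were not used here, and the depth of each library is known only relative to the others. Groups were taken from the sample titles.

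Values were analysed as log2(FPKM + 1), a pseudocount of 1, with Python 3.11.15, numpy 2.4.6 and pandas 2.3.3, and figures were drawn with matplotlib 3.10.9. The tissue difference was fitted with limma 3.58.1 (R 4.3.3, trend and robust, time point as a block) on the 13064 genes that reached FPKM 1 in any library, with Benjamini-Hochberg adjustment and a threshold of 0.05. Conditions were compared by counts of genes at least 2-fold apart. Every expressed member is named, with its 6 values where it reached FPKM 5. Pathway genes are named if they were 2-fold apart in all 3 tissue pairs, or if, among genes that reached FPKM 5, they had the largest difference of their list in either direction between OM 24h and OM naive. A few others were chosen after their values were seen. The members and lists were chosen with earlier results of these data known. Alternatives were other pseudocounts, filters, scalings, fits and leaving out each time point.

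Positions come from NCBIM37 with GENCODE M1, which is not the annotation the authors used, and 32 of the 33 members matched it. One gene of the B cell marker list is not reported here and was left out of its sums. Human samples and other assays were not analysed here.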

Additional observations from a re-analysis of the deposited data

Results flagged for a closer look

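Tnfrsf13c, the gene of the BAFF receptor, differed in opposite directions in the tissues between naive and 7 d, with a log2(FPKM + 1) difference of -0.78 in the omentum (162.2 and 94.0 FPKM) and 1.11 in the mesentery (36.0 and 78.8 FPKM). It was singled out because the difference was at least 1.5-fold in each tissue, with opposite signs. The difference between the tissues was not tested, since each condition had 1 library. The B cell marker sums differed in the same directions, from 3878 to 2383 FPKM in the omentum and from 749.4 to 1511 in the mesentery.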

How the results depend on the processing

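Of the results that answer a comparison, 161 values stayed within 1.5 times or 0.58 log2 units of the reported one, and 21 moved further. For single genes 754 values held and 83 differences moved further, while 16 tissue differences lost and 11 gained the limma threshold. No called value changed sign, but medians close to 0 did, 6 with FPKM of at least 1 in every library, 1 with no filter and 2 with rescaling to an equal sum. Uncalled tissue differences of single genes also changed sign, 3 without the 7d libraries, 1 without the 24h libraries and 1 with rescaling to an equal sum. With a pseudocount of 5 the members at least 2-fold apart numbered 9 (OM naive and MY naive), 10 (OM 24h and OM naive), 8 (OM 7d and OM 24h), 1 (MY 7d and MY naive), 3 (MY 7d and MY 24h), 9 (OM 24h and MY 24h) and 8 (OM 7d and MY 7d). With a pseudocount of 0.1 they numbered 11 (OM 7d and OM naive) and 8 (MY 24h and MY naive). With FPKM of at least 1 in every library, which left 18 members, they numbered 7 (OM naive and MY naive), 11 (OM 24h and OM naive), 8 (OM 7d and OM 24h), 1 (MY 24h and MY naive), 10 (OM 24h and MY 24h) and 8 (OM 7d and MY 7d), the median ligand difference was -0.89 (OM 7d and OM 24h) and 1.46 (OM 24h and MY 24h), and 9 members did not overlap between the tissues. The limma calls among members were 0 of 33 with no filter (18 at an unadjusted p under 0.05), 7 with a pseudocount of 0.1, and ranged from 0 to 5 on leaving out a time point, while the members that did not overlap ranged from 17 to 24 of 30, where the 24 without the 24h libraries stand beside 51.1% of all genes and the 17 without the naive libraries (56.7%) lie just below the share of all genes. Rescaling to an equal sum moved the median of all genes in the tissue fit from 0.01 to -0.18 and the calls over all genes from 663 higher and 610 lower to 559 and 860. The labels give no replicate numbers, so libraries were paired only by time point. Without this block 5 members passed (Tnf, Tnfsf9, Tnfsf13b, Tnfrsf9 and Tnfrsf25), with Tnf in and Tnfsf8 out. Low FPKM values rest on few reads, and their number is not known.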
